A study of Rattus norvegicus with 16 samples.

Results

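The genes described here are 5 transcriptional regulators of the thyroid follicular cell: *Pax8*, *Nkx2-1*, *Foxe1*, *Hhex* and *Wwtr1*. They were chosen by symbol. A probe belonged to the set where the accession printed for it in the scanner files resolved to 1 of these symbols, and 6 of the 41012 probes did, so the set held 5 of the 9242 genes that could be named. *Wwtr1* had 2 probes and each other gene had 1. *Nkx2-1* was reached through an older GenBank accession that the study's supplementary gene list pairs with its symbol, and the other genes through their RefSeq accessions. The study describes that list as its significant probes, so the naming of *Nkx2-1* was not independent of its values in these data.

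The arrays were hybridized with RNA of PCCl3 cells, a differentiated follicular cell line from Fischer rats, and every condition therefore rests on 1 cell line. Cells in which *Pax8* had been silenced by a transient siRNA transfection (si*Pax8*) were set against wild type (wt) cells on 8 arrays. On the remaining 8 they were set against cells that had received a scrambled siRNA (siScramble). There were 4 biological replicates per comparison, and the dyes were swapped within every replicate. Both siRNAs were delivered with Lipofectamine at 10 ng/ml, RNA was taken 48 h later, and the medium of all conditions held 5% donor calf serum and 1 nM TSH. The labels call the first control wild type, the methods list it as cells given lipofectamine, and a caption of the supplement describes it as not transfected, so its exposure to the reagent is not settled. Both comparisons may draw on the same si*Pax8* samples, so they cannot be taken as independent of each other.

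Pax8 is a paired domain protein and Nkx2-1 and Hhex are homeodomain proteins, while Foxe1 belongs to the forkhead family. Together they mark the thyroid primordium and remain expressed in the adult follicular cell, where Pax8 and Nkx2-1 act on the genes of hormone synthesis such as thyroglobulin (*Tg*). Wwtr1, also called TAZ, does not bind DNA by itself and is known as a coactivator of the Tead factors and of Pax8 and Nkx2-1.

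All 6 probes were well above background in both channels on all 16 arrays, and none was saturated. The mean spot signal stood 440 to 1347 times the local background for *Foxe1* and *Hhex*, 39.6 to 168.6 times for *Pax8*, 8.2 to 25.02 times for *Nkx2-1*, and 4.05 to 11.7 and 10.6 to 25.5 times for the *Wwtr1* probes A_44_P224911 and A_44_P518127. Of the marker genes, all 8 follicular ones, among them *Tg*, *Slc5a5*, *Tshr* and *Duox2*, were above background on all 16 arrays in the control channel. Of the endothelial markers 0 of 2 measured, of the fibroblast markers 1 of 3 (*Col1a2*, with *Col3a1* and *Dcn* on 0 of 16 arrays), of the C cell markers 2 of 4 (*Calca* and *Ret*) and of the leukocyte markers 1 of 1 (*Cd68*) were above background on all 16, and their part in the results was not tested. The arrays lay on 4 slides, each with 2 arrays of each comparison, and their number limits the precision.

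The values below are log2 ratios of si*Pax8* over control, averaged over the dye orientations of a replicate. Values below 0 stand for lower signal after silencing, by the dyes given in the labels. This is the sense of the signs in the study's supplementary list and the reverse of the sense in which its text words the numbers of up- and down-regulated probes. A probe was called where its p from limma, adjusted by Benjamini-Hochberg over the 41012 probes, was below 0.005, and a gene where each of its probes was. Nothing in the labels says whether the 4 replicates came from separate cultures beyond the word biological. The p-values rest on the spread between them, which limma draws toward that of all probes. A probe whose replicates vary widely, such as that of *Pax8*, thus gets a smaller SE than its own replicates would give.

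Against wt cells 3 of the 5 genes were called, all lower in si*Pax8* cells: *Hhex*, *Pax8* and *Foxe1*. This count includes *Pax8*, the target of the siRNA, whose fall was the aim of the design. Of all named genes 19.0% were called in this comparison, 8.36% higher and 10.7% lower, and the median log2 ratio was -0.19 over the 5 genes and -0.0055 over all named genes. Against siScramble cells 0 of the 5 genes were called by limma, beside 3.46% of all named genes (1.86% higher and 1.60% lower), with a median log2 ratio of -0.052 over the 5 genes and of -0.0036 over all named genes. At an unadjusted p below 0.05 by limma, 3 of the 5 genes passed against siScramble cells, *Pax8* and *Foxe1* on the lower side and *Nkx2-1* on the higher, beside 25.3% of all named genes.

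*Pax8*, the targeted gene, was the first value examined. Against wt cells its log2 ratios were -0.84, -0.57, -0.59 and -0.26 in replicates 1 to 4. The channel intensities did not overlap, since the si*Pax8* cells lay between 11.30 and 11.69 and the wt cells between 11.91 and 12.14 on the log2 scale. The mean of -0.56 ± 0.24 (SD, n = 4) left 67.7% of the wt level (limma SE 0.074, adjusted p = 0.000489). All 8 arrays had a ratio below 0, and the means within the 4 slides ran from -0.64 to -0.46.

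Against siScramble cells the *Pax8* ratios were -0.58, -0.29, -0.12 and -0.0070 in replicates 1 to 4. Replicate 4 thus had 99.5% of the *Pax8* level of its siScramble control, while replicate 1 had 67.1%. The intensity ranges of the channels overlapped, from 11.37 to 11.74 in si*Pax8* cells and from 11.50 to 11.94 in siScramble cells. The mean of -0.25 ± 0.25 (SD, n = 4), or 84.2% of the control level, was as large as the spread between replicates and was not called by limma (SE 0.085, adjusted p = 0.147). Without replicate 4 it was -0.33 (adjusted p = 0.0772 by limma) and without replicate 1 it was -0.14 (adjusted p = 0.233). The means within the 4 slides ran from -0.46 to -0.11.

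The *Pax8* ratio differed between replicates, and the control channel varied as well. Against siScramble cells the si*Pax8* channel was 11.37, 11.41, 11.39 and 11.74 in replicates 1 to 4. The siScramble channel was 11.94, 11.7, 11.5 and 11.75. In replicate 4 the ratio was -0.12 with si*Pax8* in Cy3 and 0.11 with si*Pax8* in Cy5. What made the ratios differ was not tested. In RNA from whole cultures fewer silenced cells and a smaller loss in each cell cannot be told apart. The replicate labelled 4 had the smallest fall of *Pax8* in both comparisons, and values without it are given for each of the other genes.

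**Figure D1:**
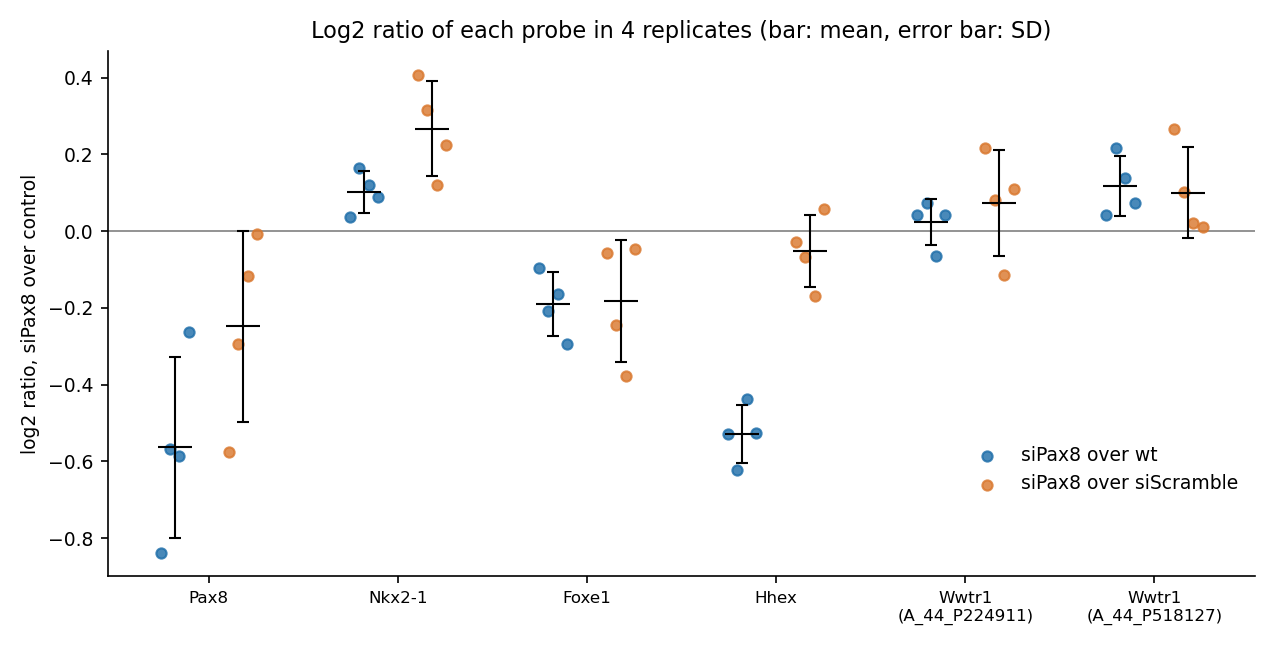
Log2 ratio of si*Pax8* over control (y axis) for the 6 probes (x axis), with 1 point per replicate, the mean as a bar and the SD as an error bar, against wt cells in blue and against siScramble cells in orange. The *Hhex* points against wt cells lie between -0.62 and -0.44 and those against siScramble cells between -0.17 and 0.058, while the *Pax8* points spread from -0.84 to -0.26 and from -0.58 to -0.0070.

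*Hhex* is a homeodomain repressor needed to maintain the thyroid primordium. Against wt cells its p ranked 615th from the lowest of the 41012 probes, and its ratios were -0.53, -0.62, -0.44 and -0.53 in replicates 1 to 4. The si*Pax8* channel lay between 14.83 and 14.94 and the wt channel between 15.37 and 15.45 on the log2 scale, without overlap. The mean of -0.53 ± 0.075 (SD, n = 4) was 69.3% of the wt level, with an adjusted p of 9.37e-06 by limma, and all 8 arrays lay below 0. Without replicate 4 the value was -0.53 (adjusted p = 0.000171 by limma).

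Against siScramble cells *Hhex* gave ratios of -0.029, -0.068, -0.17 and 0.058 in replicates 1 to 4. One replicate was higher and 3 were lower than their control, and the channels overlapped. The mean was -0.052 ± 0.094 (SD, n = 4), with a 95% interval from -0.14 to 0.040 and an adjusted p of 0.570 by limma. Without replicate 4 it was -0.089 (adjusted p = 0.284 by limma).

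The difference between the comparisons was tested for each probe in a limma fit of its own. *Hhex* was the 1 gene of the 5 called by it, beside 5.29% of all named genes. That fit treats the comparisons as separate groups, although they may share si*Pax8* samples. With same-numbered replicates paired (the replicate block), *Pax8* was called as well, at -0.32 (adjusted p = 0.00194 by limma, against 0.186 without pairing), and the difference was below 0 in 4 of 4 pairs for both genes. For *Hhex* the ratio against wt cells minus that against siScramble cells was -0.48 (SE 0.055, adjusted p = 0.000378), with a 95% interval from -0.60 to -0.36. In intensities, the si*Pax8* channel of *Hhex* averaged 14.86 on the arrays with wt cells and 14.93 on those with siScramble cells. The control channel averaged 15.40 ± 0.037 in wt and 14.98 ± 0.11 in siScramble cells (SD, n = 4), and their ranges did not overlap. The *Hhex* level of siScramble cells therefore lay nearer to that of si*Pax8* cells than to that of wt cells. Without replicate 2 the difference was -0.45 and no longer passed the threshold (adjusted p = 0.00661 by limma).

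**Figure D2:**
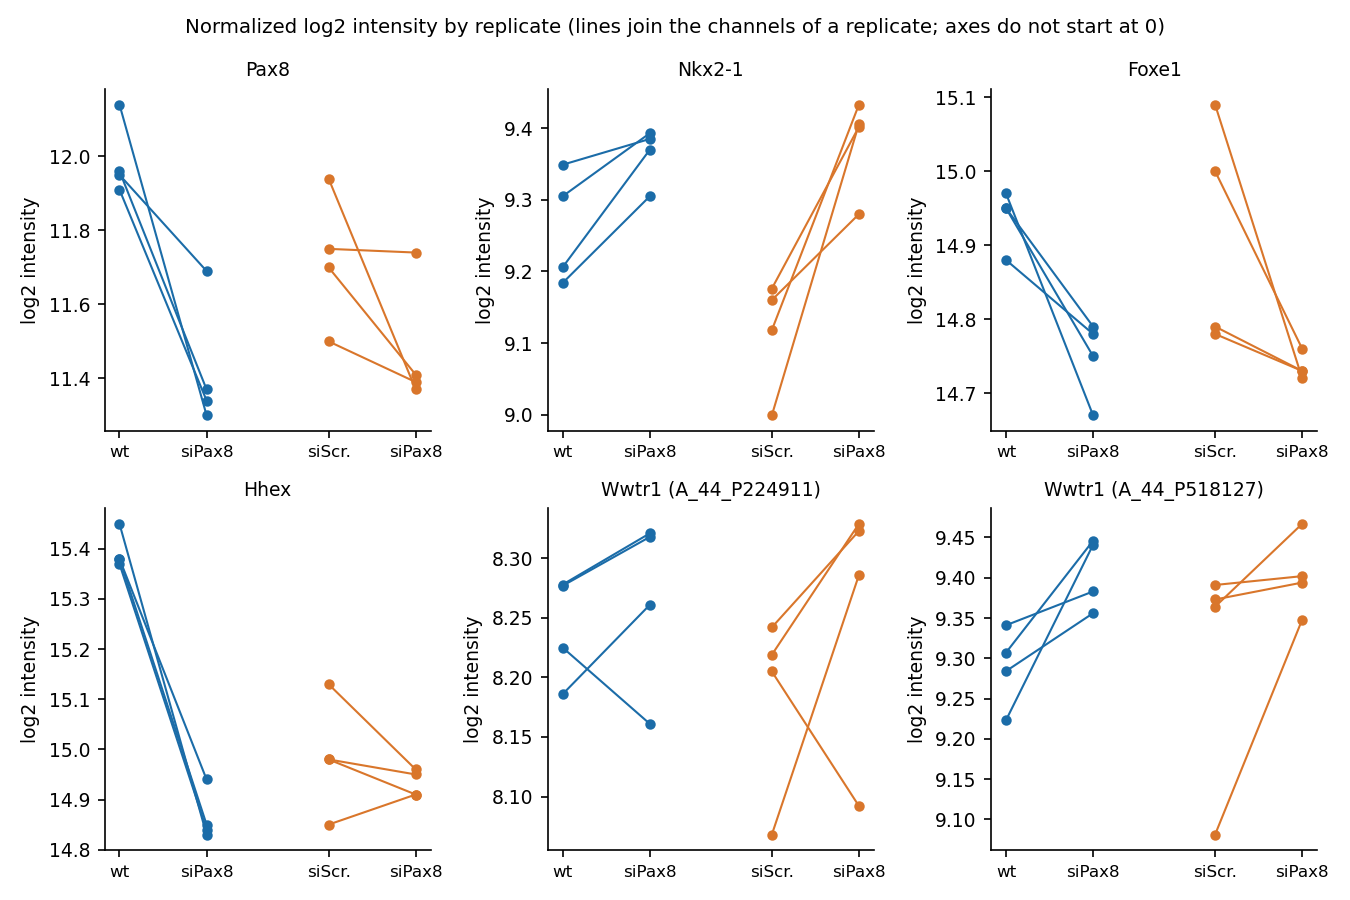
Normalized log2 intensity (y axes, which do not start at 0 and differ between panels) of each probe in the control and si*Pax8* channels, with lines joining the channels of a replicate, for the arrays with wt cells in blue and with siScramble (siScr.) cells in orange. For *Hhex* the 4 wt points lie between 15.37 and 15.45 and the siScramble points between 14.85 and 15.13, while the si*Pax8* points lie between 14.83 and 14.96 in both comparisons.

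*Foxe1* encodes a forkhead factor needed for migration of the thyroid bud and for expression of thyroglobulin. Against wt cells it gave ratios of -0.097, -0.21, -0.16 and -0.29 in replicates 1 to 4, and the channels did not overlap. The mean of -0.19 ± 0.083 (SD, n = 4), or 87.6% of the wt level, passed the threshold narrowly (adjusted p = 0.00412 by limma). With si*Pax8* in Cy5 the mean was -0.27 and with si*Pax8* in Cy3 it was -0.11, where it was not called (adjusted p = 0.237 by limma). It also missed the threshold without replicate 2, 3 or 4 (-0.18, -0.20 and -0.16, each with an adjusted p by limma from 0.0209 to 0.0251).

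Against siScramble cells the *Foxe1* ratios were -0.056, -0.24, -0.38 and -0.047 in replicates 1 to 4, all below 0. The mean of -0.18 ± 0.16 (SD, n = 4) was of the size found against wt cells but varied more, and it was not called by limma (adjusted p = 0.118, or 0.0957 without replicate 4, at -0.23). It also depended on the dye, at -0.30 with si*Pax8* in Cy5 and -0.059 with si*Pax8* in Cy3 (adjusted p = 0.0508 and 0.597 by limma). Of the 4 slides, 3 gave a mean below 0 (from -0.37 to -0.13) and the remaining one gave 0.030. The difference between the comparisons was -0.0094, with a 95% interval from -0.17 to 0.15 and an adjusted p of 0.971 by limma.

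*Nkx2-1*, the homeodomain factor that acts with Pax8 on the *Tg* promoter and that also directs lung development, lay on the other side of 0. Against siScramble cells its ratios were 0.41, 0.31, 0.12 and 0.23 in replicates 1 to 4, and the channels did not overlap (9.28 to 9.433 in si*Pax8* cells and 8.999 to 9.176 in siScramble cells). The mean was 0.27 ± 0.12 (SD, n = 4), or 120% of the control level, and it missed the threshold of 0.005 (adjusted p = 0.0164 by limma). When the 8 arrays were fitted with a dye term and the replicate as a block, the same value was called (adjusted p = 0.00402 by limma), as it was in a fit of both comparisons together (adjusted p = 0.00201). The first fit counts both dye orientations of a replicate, and the second uses comparisons that may share si*Pax8* samples. Of the 15 other settings 5 gave a call. The adjusted p by limma was 0.182 with si*Pax8* in Cy5 alone (at 0.22), 0.151 with Agilent's processed signals and 0.0882 without replicate 2. All 4 slides gave a mean above 0, from 0.17 to 0.40.

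Against wt cells the *Nkx2-1* ratios were 0.036, 0.16, 0.12 and 0.088 in replicates 1 to 4, and the channels overlapped. The mean of 0.10 ± 0.054 (SD, n = 4) was not called by limma (adjusted p = 0.0421). The difference between the comparisons was -0.16, with a 95% interval from -0.30 to -0.035, and did not pass the threshold (adjusted p = 0.116 by limma). Without replicate 4 the ratios were 0.11 against wt and 0.28 against siScramble cells.

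The *Wwtr1* probes gave no call in either comparison. For A_44_P518127 the ratios against wt cells were 0.042, 0.22, 0.14 and 0.072 in replicates 1 to 4, with a mean of 0.12 (95% interval 0.037 to 0.20, adjusted p = 0.0383 by limma). For A_44_P224911 they were 0.041, 0.074, -0.065 and 0.043, with a mean of 0.023 (95% interval -0.051 to 0.098, adjusted p = 0.723 by limma). The probes differ in that the first was above 0 in all 4 replicates and the second in 3, and with si*Pax8* in Cy5 alone the first was called (0.18, adjusted p = 0.00186 by limma).

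Against siScramble cells the *Wwtr1* ratios were 0.27, 0.10, 0.021 and 0.011 for A_44_P518127 and 0.22, 0.081, -0.11 and 0.11 for A_44_P224911. The largest ratio of both probes was that of replicate 1, whose siScramble channel had the lowest intensity of the 4. The means were 0.10 (95% interval -0.0074 to 0.21) and 0.074 (95% interval -0.047 to 0.20), with adjusted p of 0.286 and 0.531 by limma. Without replicate 4 neither probe was called in either comparison, with values of 0.13 (wt) and 0.13 (siScramble) for A_44_P518127 and of 0.017 and 0.062 for A_44_P224911.

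In size the 5 genes ordered differently by control. Against wt cells *Pax8* (-0.56) and *Hhex* (-0.53) were lowest and closer to each other than the spread between replicates, followed by *Foxe1* (-0.19), while *Wwtr1* and *Nkx2-1* lay at or above 0. Against siScramble cells *Pax8* (-0.25) and *Foxe1* (-0.18) were lowest and also within their spread, followed by *Hhex* (-0.052), with *Nkx2-1* (0.27) at the other end.

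**Figure D3:**
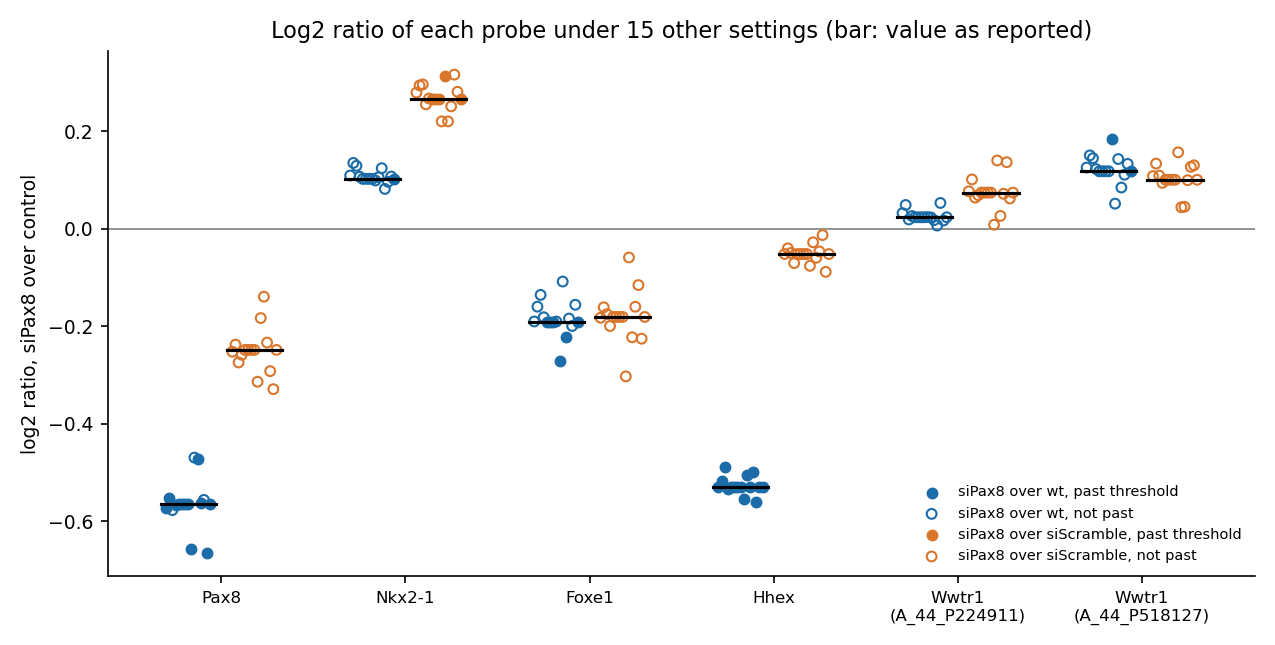
Log2 ratio of si*Pax8* over control (y axis) for the 6 probes (x axis) under 15 other ways of processing, with 1 point per setting, filled where it passed its threshold, and the value as reported as a bar. *Hhex* against wt cells stays between -0.56 and -0.49 and passes in all 15, *Foxe1* against wt cells passes in 6, and *Nkx2-1* against siScramble cells lies between 0.22 and 0.32 and passes in 5.

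The sequence upstream of the *Hhex* start is shown because *Hhex* had the lowest p of the 5 genes against wt cells, and short stretches of the others because they hold the motif letters searched. The windows are the 250 bases before the RefSeq start on GRCr8, which held an entry for 4 of the 5 genes (not *Foxe1*). Both strands were searched for GCGTGAC (a core of Pax paired domain sites), CTCAAG (the Nkx2-1 core), TGTTTAC (forkhead), CATTCC (Tead), TGACGTCA (the cAMP response element) and GGGCGG (the GC box bound by Sp1). Capitals mark the matches, none of which overlap each other. The *Pax8* and *Nkx2-1* starts used lie inside a longer annotated gene, so only 30 bases are printed for these.
Hhex, chr1:244602695-244602944, plus strand: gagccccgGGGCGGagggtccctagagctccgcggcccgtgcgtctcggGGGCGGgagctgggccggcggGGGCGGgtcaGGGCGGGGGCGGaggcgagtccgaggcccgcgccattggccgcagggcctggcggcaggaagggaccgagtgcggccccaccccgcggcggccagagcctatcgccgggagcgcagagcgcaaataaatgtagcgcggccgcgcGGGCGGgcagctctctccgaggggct
Pax8, chr3:27640827-27640856, minus strand: aggactctgtggCCGCCCtctcttcccgcc
Nkx2-1, chr6:79735027-79735056, minus strand: cccgagcctccaCTCAAGccaattaaggcg
Wwtr1, chr2:143917162-143917191, minus strand: cgcggcgGGGCGGgggcacggtctctccgg

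The *Hhex* window held 6 GC boxes and the *Pax8* and *Wwtr1* windows 1 each, while 30.5% of the 33469 promoters of the same length held at least 1. The GC content was 78.4% for *Hhex*, 66.4% for *Wwtr1*, 60.8% for *Pax8* and 55.2% for *Nkx2-1*, against a median of 51.2%. CTCAAG was found once, in the *Nkx2-1* window, and in 13.3% of all promoters. GCGTGAC (1.74% of all promoters), TGTTTAC (3.21%), CATTCC (12.1%) and TGACGTCA (1.59%) were not in any of the 4 windows. These matches describe letters and no binding was measured on these arrays.

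The genes that the 5 factors act with or on were followed through 6 lists. Of the thyroid genes known as shared targets, 13 of 16 were measured, and against wt cells 7 were lower, 1 was higher and 5 were not called, with a median log2 ratio of -0.44. Against siScramble cells 1 was lower, 0 were higher and 12 were not called, with a median of -0.13. *Tg*, the hormone precursor, was the 1 gene of the list called in both, with ratios of -1.14, -1.06, -0.83 and -0.79 against wt cells in replicates 1 to 4. With siScramble as the control its ratios were -0.69, -0.68, -0.75 and -0.47, and this call was lost in 4 of the 15 other settings, among them without replicate 2 and without replicate 3. *Dio1* (-0.80), *Slc5a5* (the sodium/iodide symporter, -0.61) and *Iyd* (-0.44) were among the other lower genes against wt cells, and *Slc26a4* (pendrin) was the higher one at 0.64. Against siScramble cells none of these was called, with *Dio1* at -0.24 and *Iyd* at -0.20. *Slc5a5* (0.073) and *Slc26a4* (-0.18) had the other sign there. These genes were named after their values were seen. Like *Hhex*, *Slc5a5*, *Duox2*, *Dio1* and *Cdh16* passed the test of the difference between the comparisons on the lower side.

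Among the partners and cofactors, 18 of 32 genes were measured. Against wt cells 4 were higher and 1 lower (median 0.063), and against siScramble cells 1 was higher and 1 lower (median 0.026). *Jun*, a subunit of the AP-1 factor, was called in both, at 0.92 ± 0.051 and 0.47 ± 0.10 (SD, n = 4). *Fos*, its partner, was higher against wt cells (0.86 ± 0.046) and lower against siScramble cells (-0.22 ± 0.032), and this difference was called by limma (1.08 on the log2 scale). Of the 15 other settings, *Fos* lost its call against siScramble cells in 8, each fit without 1 replicate among them, and *Jun* in 5, while both kept their calls against wt cells in all 15. *Fos* was singled out after its values were seen. *Yap1*, *Ep300* and the Tead factors had no named probe and were not analysed here. Of the 18 measured genes, 16 were above background on all arrays.

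Of the genes known as *Wwtr1* and *Yap1* targets, 8 of 12 were measured, with 3 higher, 3 lower and 2 not called against wt cells (median -0.055), and 1 higher, 1 lower and 6 not called against siScramble cells (median 0.010). *Ccn2*, a matrix protein, was higher in both (0.46 ± 0.069 and 0.36 ± 0.031, SD, n = 4), although the call against siScramble cells was lost in 4 of the 15 other settings, among them without replicate 2 and without replicate 3. *F3*, the tissue factor, was lower in both (-0.88 ± 0.035 and -0.58 ± 0.074, SD, n = 4). The list thus held calls in both directions.

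Of the surfactant and airway genes that Nkx2-1 is known to act on in the lung, 8 of 9 had a probe and 1 was called in each comparison. That gene was *Sftpc* (surfactant protein C), with ratios of 2.62, 2.34, 2.48 and 2.29 against wt cells in replicates 1 to 4. With siScramble as the control they were 2.28, 2.08, 2.15 and 2.14. Its probe was well above background in all 8 si*Pax8* channels of each comparison, in 0 of 8 wt channels and in 8 of 8 siScramble channels. Its level in si*Pax8* cells was therefore at least 5.40-fold higher than in wt cells, taking for each wt array the higher of its own value and the lowest signal well above background. To the digits printed this bound equals the plain ratio, to which the adjusted p of 2.83e-08 by limma belongs. Of the other 7 genes, 2 (*Scgb1a1* and *Napsa*) were above background on all arrays. The medians of the list, -0.015 and 0.0059, thus rest mostly on probes at background, and the absence of further calls says nothing of the genes not detected.

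Of the other factors of thyroid development 6 of 18 were measured. *Foxa2*, a forkhead factor of the foregut, was called higher against wt cells (0.28 ± 0.16, SD, n = 4) and *Foxq1*, another forkhead factor, against siScramble cells (0.30 ± 0.050). Both calls were unstable. That of *Foxa2* was lost in 7 of the 15 other settings, among them without replicate 1, 2 or 3, and that of *Foxq1* in 6, each fit without 1 replicate among them. These were the 2 genes of the list above background on all arrays, and its medians were 0.0070 and 0.037. In the Pax family, 2 of 8 other members were measured and neither was called. *Pax6* gave -0.16 against wt and -0.0022 against siScramble cells, and *Pax4* -0.078 and -0.049, and neither was well above background on all arrays.

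**Figure D4:**
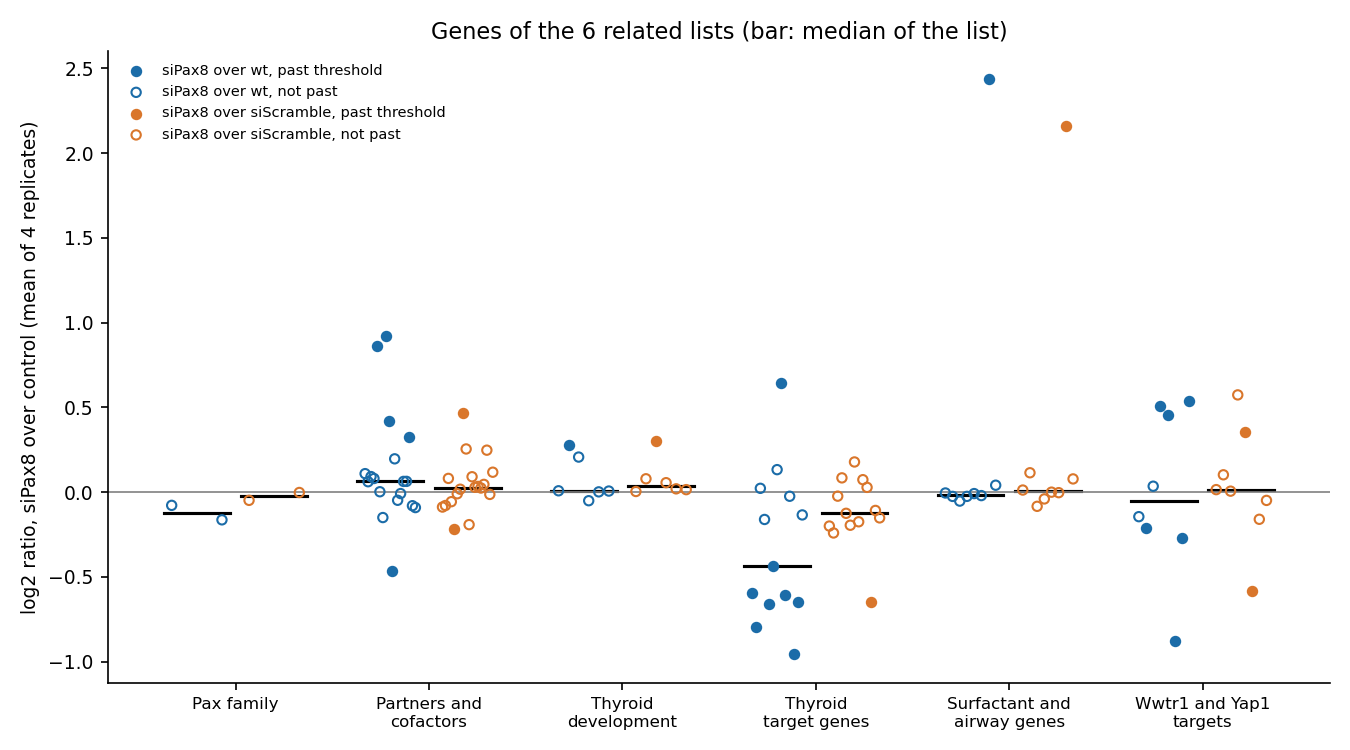
Log2 ratio of si*Pax8* over control (y axis) for the measured genes of the 6 lists (x axis), with 1 point per gene, filled where called, the median of a list as a bar, against wt cells in blue and against siScramble cells in orange. The point above 2 in both comparisons is *Sftpc*, and the thyroid target genes have the lowest medians (-0.44 and -0.13).

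Across 5120 named genes above background on all arrays, those with the pattern most like *Pax8* over the 8 replicate ratios were *Rrm2*, *Ccng1*, *Gamt*, *Kazn* and *Glg1*, whose ratios differed from those of *Pax8* by a root mean square of 0.13 to 0.15 on the log2 scale, against a median of 0.48 over all genes searched. *Rrm2* (a subunit of ribonucleotide reductase) had -0.59 against wt and -0.25 against siScramble cells. The genes nearest to *Hhex* were *Azin2*, *LOC679221*, *Abca7*, *Ttyh3* and *Znrf1* (0.066 to 0.097), with ratios from -0.59 to -0.46 (wt) and from -0.11 to 0.011 (siScramble). Those nearest to *Foxe1* were *Ptgfrn*, *Arl6ip1*, *Sdc1*, *Apeh* and *Tubb4b* (0.056 to 0.082). None of the other 4 factors was among the 5 genes nearest to any of these.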

How the data were processed

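The authors deposited, for each of the 16 arrays, a scanner file with fluorescence intensity values (mean signal of each spot and its median local background in both dyes, not normalized), the dye-normalized signals of Agilent's software and outlier flags. They also deposited 1 table of normalized log2 ratios, whose values correlated with those computed here from -0.999 to -0.993 and so hold control over si*Pax8*, with column medians from -0.00011 to 0.0068. Feature Extraction 10.1.1.1 and a 5 µm scan are named by the file headers, against an earlier version and a coarser scan in the study's methods.

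Background was corrected by normexp (offset 50) with limma 3.58.1 in R 4.3.3, followed by loess within arrays, with control and outlier spots at weight 0, and quantile normalization of all channels. Of 45018 spots per array 1639 were controls. Spots of a probe were averaged without outlier spots, then the dye orientations of a replicate. Deviations from the mean of the replicates correlated between dye orientations of the same number from 0.12 to 0.51, among probes whose mean log2 intensity exceeded 8; replicate 2 against wt correlated more with another number (0.20) than with its own (0.12). Each comparison was fitted to 4 values per probe with lmFit and eBayes, with Benjamini-Hochberg adjustment and the study's threshold of 0.005. The difference was fitted to 8 values as separate groups, with pairing by replicate number as an alternative. The script was tested on simulated data.

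RefSeq accessions (GRCr8, names only for the arrays) named 10768 probes and the study's list 459 more, and 29785 stayed unnamed. The shares of named genes called thus include genes named only through probes that the study lists as significant. Values of a gene with several probes are means. From each list every gene called in both comparisons with 1 direction is named, otherwise the 3 of largest mean size (1 of these is not reported here by name), and likeness names 5 genes. The genes and lists were chosen with earlier results of these data known. Columns of the authors' own fold changes and p-values in the supplementary list were not used. Alternatives were no background subtraction, loess alone, Agilent's processed signals, the deposited table, a filter on dim probes, blocks for replicate or slide, 1 fit for both comparisons, single dyes, a threshold of 0.05 and leaving out each replicate. Matches to promoters used Python 3.11.15, and figures matplotlib 3.10.9. The ChIP-Seq, luciferase and qRT-PCR parts of the study were not analysed here.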

Additional observations from a re-analysis of the deposited data

Results flagged for a closer look

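*Hhex* was singled out because its ratio differed between the comparisons by a test of the difference itself. The value against wt cells minus that against siScramble cells was -0.48 on the log2 scale (SE 0.055, adjusted p = 0.000378 by limma), with means of -0.53 and -0.052. All 4 replicates were below 0 against wt cells and 3 of 4 against siScramble cells.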

How the results depend on the processing

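Over 15 alternatives per comparison, no ratio of a probe against wt or siScramble cells changed sign, and all calls of *Hhex* against wt cells were kept (-0.56 to -0.49). Against wt cells the 3 calls fell to 1 with Agilent's processed signals and with si*Pax8* in Cy3 alone, where *Hhex* alone stayed, and lay between 1 (without replicate 3) and 3 when 1 replicate was left out. The *Pax8* call was lost with those signals (adjusted p = 0.0201), with Cy3 alone (0.0184) and without replicate 3 (0.00576), all by limma. *Foxe1* lost its call in 9 of 15 settings. Against siScramble cells the count of 0 became 1 (*Nkx2-1*) with the replicate block or the slide as a block, in 1 fit of both comparisons, with Cy3 alone and at a threshold of 0.05. For the difference, 1 gene became 0 with the processed signals and 0 to 1 without a replicate. With the replicate block, which pairs same-numbered replicates of the comparisons, it became 2, *Pax8* joining at -0.32 (adjusted p = 0.00194 by limma). That pairing was not used as the main one because the correlations between the comparisons were 0.39, 0.17, 0.044 and 0.56 and replicate 3 correlated best with another number (0.40). Differences near 0 changed sign: for *Foxe1*, 0.0014 with loess alone, 0.039 with processed signals, 0.018 with the deposited table, 0.031 with Cy5 alone and from -0.084 to 0.070 among the fits without a replicate; for *Wwtr1*, 0.016 (A_44_P224911, Cy5 alone) and from -0.016 to 0.098 among the fits without a replicate (A_44_P518127). The cause was not tested. Over all probes, 483 were higher and 348 lower against siScramble cells, or 11 and 0 with processed signals, 1673 and 1811 with Cy3 alone and 407 and 168 with loess alone. For the lists, the same alternatives were added after seeing the data: between 6 and 9 thyroid targets were called lower against wt cells, between 0 and 4 against siScramble cells, and the *Wwtr1* and *Yap1* targets against wt cells from 0 to 3 higher and from 1 to 4 lower.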
